A study of Mus musculus with 10 samples.

Results

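Collagen chain genes code for the polypeptides from which collagens, the main structural proteins of connective tissue, are assembled. They were taken here as all genes whose annotation on the array gives a single symbol made of Col, a number, a and a number. Of 18193 genes with such a single-symbol probe set (a group of short DNA probes read out as 1 value), 42 were collagen chain genes. Each gene was read from its brightest probe set, the set with the highest mean over the 10 arrays. A gene was used if this set reached a log2 value of 5 on at least 2 arrays, which 38 of the 42 collagen chain genes did, among 14988 genes in all. These were 10 fibrillar chains, 8 chains of basement membranes and 20 other chains. The other 4 stayed below that level: Col11a1 (highest array 4.55), Col19a1 (4.89), Col6a5 (4.03) and Col9a2 (4.39).

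The arrays measured RNA of whole lungs of ICR mouse pups, an outbred strain, raised in 80% oxygen (hyperoxia) or in room air. Litters were pooled within hours of birth and allotted at random, exposure lasted 14 or 29 days, and the nursing dams changed places daily between the exposures. There were 2 room-air and 3 hyperoxia arrays at postnatal day 14 (P14), and the same numbers at day 29 (P29). The sample titles call the room-air groups WT and the hyperoxia groups BPD, short for bronchopulmonary dysplasia, a chronic lung disease seen after preterm birth. All groups were of the same strain, and the labels name no genetic alteration. Whether the arrays of a group were separate animals is not stated in the labels, and p-values therefore measure only the spread between these arrays.

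Each collagen molecule is a helix of intertwined alpha chains rich in glycine and proline. Fibrillar collagens line up side by side into the strong fibres of airway and vessel walls and of the interstitium. Type IV collagen forms the sheet under epithelium and endothelium, and in the gas-exchange wall it lies between the air space and the capillary. Other types decorate fibrils, form beaded filaments or short networks, or span cell membranes. In bulk lung RNA, fewer cells that express a chain and less of its RNA per cell cannot be told apart.

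Values are on the log2 scale, so a difference of 1 is a doubling. Differences are hyperoxia minus room air, with the standard error (SE) of a linear model fitted to all 14988 genes with limma, with Benjamini-Hochberg adjustment of the p-values over that whole table. A gene is said to have risen or fallen at an adjusted p under 0.05. Levels of different genes are not compared, since a probe set's brightness depends on its sequence.

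Some properties of the arrays moved with the groups. The actin control probe sets at the 3 prime end exceeded those at the 5 prime end by 0.317 to 0.542 in P14 room air and 0.517 to 0.737 in P29 room air, against 1.33 to 2.21 and 1.72 to 1.86 in hyperoxia. All 5 P14 arrays had the male pattern of Xist and Y-linked genes, both P29 room-air arrays had the female pattern, and of the P29 hyperoxia arrays replicate 1 had the male pattern, replicate 2 the female pattern and replicate 3 both. The part of either in the results below was not tested, except by the values given without these arrays or with an actin term. The 7 lung-defining epithelial and endothelial markers were above the filter, and hyperoxia lowered part of them: 3 fell and 1 rose at P14, and 5 fell and 0 rose at P29 (the same at an unadjusted p under 0.05). Their summed log2 level was 16.45 to 16.5 in room air and 16.4 to 16.46 in hyperoxia at P14, and 16.74 to 16.79 and 16.47 to 16.51 at P29. Here and below, a summed level is the log2 of the sum of the unlogged values, so the brightest markers weigh most in it. The surfactant gene Sftpb differed by -1.55 and -1.74 at P14 and P29, and the endothelial gene Pecam1 by -0.88 and -1.32; their part in the collagen counts was not tested. Arrays of 1 group correlated at 0.993 to 0.996 over the genes used.

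At P14, hyperoxia raised Col8a1 and Col8a2 of type VIII collagen and lowered 3 of the 4 type VI chains used. Of the 8 basement membrane chains 3 rose, and of the 10 fibrillar chains 1 rose and 3 fell. Of the 38 chains, 7 rose (18.4%, against 32.3% of all 14988 genes) and 10 fell (26.3%, against 22.8%). The median difference of the chains was -0.009, beside 0.038 for all genes. The share of chains that fell was near that of all genes, and the share that rose was below it. Groups did not overlap for 10 chains that were higher (26.3%, beside 39.6% of all genes) and 13 that were lower (34.2%, beside 31.7%).

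With the brightest sets, the largest difference among the chains at P14 belonged to Col8a1. Its product, with that of Col8a2, forms the short-chain network of type VIII collagen, known from vessel walls and the corneal Descemet membrane. Col8a1 lay at 5.19 and 5.72 in room air and at 8.63, 8.61 and 8.67 in hyperoxia at P14, and at 7.58 and 7.44 in room air and at 8.98, 9.11 and 8.98 in hyperoxia at P29. The P14 room-air arrays stood alone at the bottom, and the groups did not overlap at either age. The difference was 3.18 (SE 0.13, adjusted p = 1.02e-07) at P14, or 9.08-fold, and 1.51 (SE 0.13, adjusted p = 4.49e-06) at P29, or 2.85-fold. In room air the gene rose with age by 2.06 (SE 0.14, adjusted p = 9.8e-07), and the P14 hyperoxia arrays lay above the P29 room-air arrays. Col8a2 lay at 4.71 and 4.52 in room air and at 5.44, 5.50 and 5.74 in hyperoxia at P14, and at 5.41 and 5.31 in room air and at 6.11, 6.37 and 6.01 in hyperoxia at P29. Col8a2 rose by 0.95 (SE 0.12, adjusted p = 0.000103) at P14 and by 0.80 (SE 0.12, adjusted p = 0.000233) at P29, with no overlap of the groups at either age. It was below the filter level of 5 on both P14 room-air arrays. Col10a1, the third short chain and a product of hypertrophic cartilage, did not pass the test, with -0.21 at P14 (adjusted p = 0.426) and -0.46 at P29 (adjusted p = 0.0948).

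The start region of Col8a1 is given because the gene led the chains at P14. It comes from RefSeq (build GRCm38.p6), runs 5′ to 3′ on the gene's strand from 250 bases before to 50 after the annotated start, and has capitals where the GC box (GGGCGG), the CCAAT box, the TATA box (TATAAA) or the AP-1 letters (TGANTCA) match on either strand.
Col8a1, chr16:57754688-57754987 (minus strand): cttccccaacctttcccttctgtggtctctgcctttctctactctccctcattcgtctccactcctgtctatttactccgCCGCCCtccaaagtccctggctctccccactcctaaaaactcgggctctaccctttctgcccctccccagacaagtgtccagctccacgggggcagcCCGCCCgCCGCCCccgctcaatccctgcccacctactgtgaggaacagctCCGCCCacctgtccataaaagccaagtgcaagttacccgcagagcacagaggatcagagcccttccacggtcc
It held 4 matches of GGGCGG and none of the other motifs, with a GC content of 60.3%. GGGCGG was present in 22 of 36 start regions of collagen chain genes, which cover 33 of the 42 genes, and in 35.7% of all 32851 start regions of that length in the table. CCAAT was in 13 of the 36 (37.4% of all), TATAAA in 5 (13.6%) and TGANTCA in 1, that of Col6a1 (7.81%). A match describes letters in this window and is no evidence of binding.

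**Figure D1:**
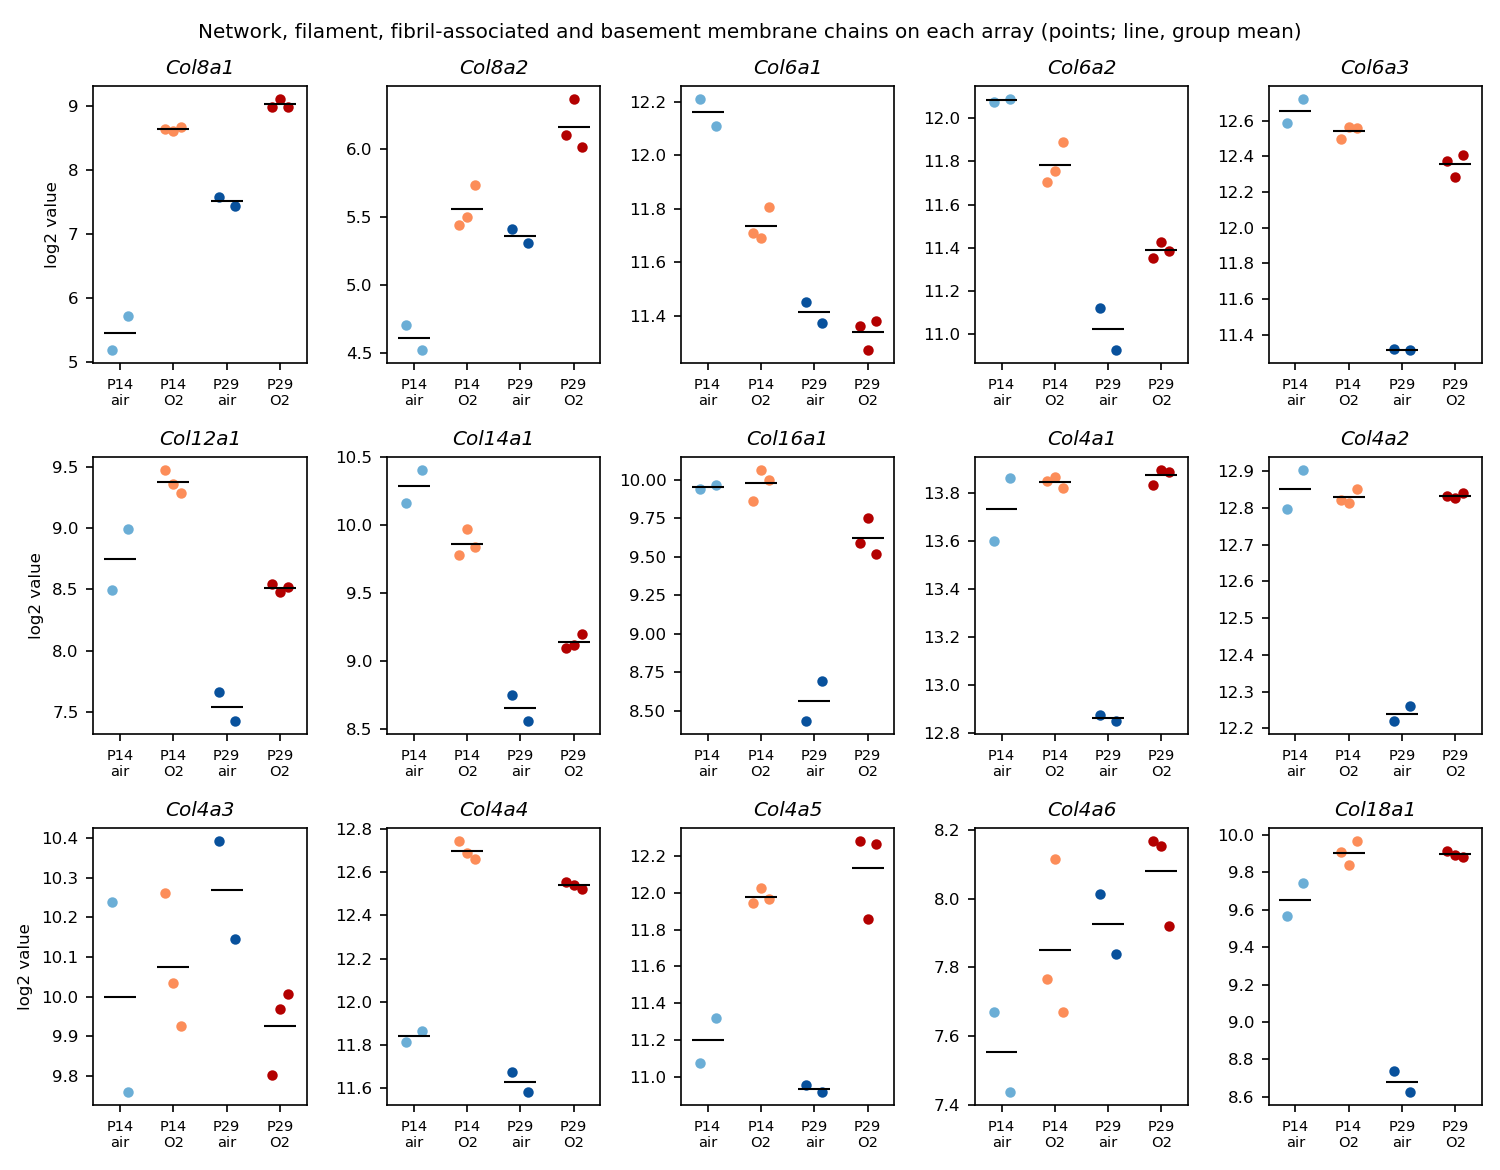
Log2 value (vertical axis) on each of the 10 arrays for 15 chains of the network, filament, fibril-associated and basement membrane groups, with P14 and P29 room air and hyperoxia (O2) along the horizontal axis; points are arrays and lines group means. Col8a1 is lowest on the 2 P14 room-air arrays (5.19 and 5.72), while Col4a1 and Col6a3 are lowest on the P29 room-air arrays.

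Chains of basement membranes rose or did not pass the test at P14. Of the 8, 3 rose and 0 fell, also 3 and 0 at an unadjusted p under 0.05, with a median of 0.274. Col4a4 lay at 11.81 and 11.86 in room air and at 12.75, 12.69 and 12.66 in hyperoxia at P14, and at 11.67 and 11.58 in room air and at 12.55, 12.54 and 12.52 in hyperoxia at P29. Col4a4 codes for a chain of the mature type IV network of the alveolar and glomerular basement membrane, and it rose by 0.86 (SE 0.07, adjusted p = 8.15e-06), or 1.82-fold, with all hyperoxia arrays above all room-air arrays. Col4a5 lay at 11.08 and 11.32 in room air and at 11.95, 12.02 and 11.97 in hyperoxia at P14, and at 10.95 and 10.91 in room air and at 12.29, 11.86 and 12.27 in hyperoxia at P29. Col4a5, a partner of Col4a4 in that network and the gene most often altered in Alport syndrome, rose by 0.78 (SE 0.13, adjusted p = 0.000397), or 1.72-fold, again without overlap. A second probe set of Col4a5 went the other way at P14, at -0.33 (SE 0.09, adjusted p = 0.00866), so the direction of this gene at P14 rests on the probe set. Col4a3 lay at 10.24 and 9.76 in room air and at 10.26, 10.03 and 9.93 in hyperoxia at P14, and at 10.39 and 10.15 in room air and at 9.80, 9.97 and 10.01 in hyperoxia at P29. Col4a3, the remaining chain of that network, overlapped between the groups at P14 and lay at a difference of 0.08 (SE 0.15, adjusted p = 0.678). Its second probe set, by contrast, rose by 0.29 (SE 0.09, adjusted p = 0.0205).

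The embryonic and widespread type IV chains did not pass the test at P14. Col4a1 lay at 13.60 and 13.86 in room air and at 13.85, 13.87 and 13.82 in hyperoxia at P14, and at 12.88 and 12.85 in room air and at 13.83, 13.90 and 13.88 in hyperoxia at P29. Col4a1 differed by 0.11 (SE 0.09, adjusted p = 0.274) at P14, where the groups overlapped. Its second probe set differed by -0.45 (SE 0.09, adjusted p = 0.00254) at P14. Col4a2 lay at 12.80 and 12.90 in room air and at 12.82, 12.81 and 12.85 in hyperoxia at P14, and at 12.22 and 12.26 in room air and at 12.83, 12.83 and 12.84 in hyperoxia at P29. Col4a2, whose product joins that of Col4a1 in a single molecule, differed by -0.02 (SE 0.07, adjusted p = 0.8) at P14. Col4a6 lay at 7.67 and 7.44 in room air and at 7.76, 8.12 and 7.67 in hyperoxia at P14, and at 8.01 and 7.84 in room air and at 8.17, 8.15 and 7.92 in hyperoxia at P29. Col4a6, a chain of epithelial and smooth muscle basement membranes, differed by 0.30 (SE 0.14, adjusted p = 0.0872) at P14, while its second probe set rose by 0.94 (SE 0.11, adjusted p = 9.77e-05). Col18a1 lay at 9.57 and 9.74 in room air and at 9.91, 9.84 and 9.97 in hyperoxia at P14, and at 8.74 and 8.62 in room air and at 9.92, 9.89 and 9.88 in hyperoxia at P29. Col18a1, the precursor of endostatin and a proteoglycan of basement membranes, rose by 0.25 (SE 0.08, adjusted p = 0.025), a small difference whose call was lost without P14 room air replicate 1 (0.16, adjusted p = 0.196). Col15a1 lay at 6.88 and 7.68 in room air and at 7.39, 7.69 and 7.95 in hyperoxia at P14, and at 6.37 and 6.72 in room air and at 7.07, 7.25 and 7.21 in hyperoxia at P29. Col15a1, its relative at the border of basement membrane and interstitium, differed by 0.40 (SE 0.21, adjusted p = 0.137), with a wide spread of its room-air arrays.

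Among the 10 fibrillar chains, 1 rose and 3 fell at P14, with a median of 0.013. The chains of type I and type III collagen, which make up most of the lung's fibrillar collagen, did not pass the test with the brightest sets. The differences were 0.00 for Col1a1 (adjusted p = 0.976), 0.02 for Col1a2 (adjusted p = 0.839) and 0.13 for Col3a1 (adjusted p = 0.151). With second sets Col1a1 (0.78, adjusted p = 0.0042) and Col1a2 (0.27, adjusted p = 0.0456) rose, and Col3a1 did not pass (0.21, adjusted p = 0.0664). A still dimmer set of Col1a2 had the opposite sign at P14 (-0.56) and was not tested. Type V chains, which join type I in the same fibril and limit its width, split. Col5a3 lay at 5.93 and 6.26 in room air and at 6.73, 6.58 and 6.90 in hyperoxia at P14, and at 6.05 and 6.03 in room air and at 7.18, 7.64 and 7.31 in hyperoxia at P29. Col5a3 rose by 0.64 (SE 0.14, adjusted p = 0.00319), or 1.56-fold, and its groups did not overlap; without P14 room air replicate 1 the difference was 0.48 (adjusted p = 0.051). Col5a1 and Col5a2 lay at 0.20 (adjusted p = 0.181) and 0.13 (adjusted p = 0.146). Col27a1 lay at 9.85 and 10.11 in room air and at 9.34, 9.45 and 9.58 in hyperoxia at P14, and at 8.33 and 8.35 in room air and at 9.01, 9.01 and 8.89 in hyperoxia at P29. Col27a1, a chain of thin fibrils best known from cartilage, fell by 0.52 at P14 (SE 0.10, adjusted p = 0.00126), with every hyperoxia array below both room-air arrays.

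The remaining fibrillar chains were dim or near the filter. Col24a1 lay at 5.04 and 5.42 in room air and at 4.39, 4.53 and 4.38 in hyperoxia at P14, and at 3.47 and 3.24 in room air and at 3.56, 3.35 and 3.32 in hyperoxia at P29. Col24a1, a minor fibrillar chain, differed by -0.79 (SE 0.12, adjusted p = 0.000352) at P14. It passed the filter on low values through its 2 P14 room-air arrays alone, so the choice of genes bears on its difference, as it does for Col26a1; Col17a1 passed through its 2 P29 room-air arrays alone. Col2a1 lay at 6.39 and 6.51 in room air and at 5.97, 6.0 and 6.09 in hyperoxia at P14, and at 6.46 and 6.50 in room air and at 6.01, 5.76 and 6.26 in hyperoxia at P29. Col2a1, the main chain of cartilage, differed by -0.43 (SE 0.12, adjusted p = 0.0126) at P14, a call lost without P14 room air replicate 2 (-0.37, adjusted p = 0.0833), and by -0.47 (SE 0.12, adjusted p = 0.0073) at P29. The summed level of the 7 cartilage markers above the filter, of 10 listed, was 9.93 to 9.95 in room air and 9.98 to 10.01 in hyperoxia at P14, and 10.77 to 10.83 and 10.36 to 10.57 at P29, so that it was lower in hyperoxia at P29 as Col2a1 was. At P29, Cytl1 (-3.30), Acan (-0.87) and Comp (-0.41) fell and Hapln1 (2.62) and Matn4 (0.55) rose; their part in the fall of Col2a1 was not tested. Col11a2 lay at 5.16 and 4.81 in room air and at 4.71, 4.83 and 4.86 in hyperoxia at P14, and at 4.68 and 5.02 in room air and at 4.63, 4.59 and 4.93 in hyperoxia at P29. Col11a2, a cartilage chain too, did not pass the test at either age (-0.19, adjusted p = 0.265, and -0.13, adjusted p = 0.425).

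Type VI collagen, which forms beaded filaments around cells and fibrils, fell in part at P14: of its 4 chains used, 3 fell and 0 rose. Col6a1 lay at 12.21 and 12.11 in room air and at 11.71, 11.69 and 11.81 in hyperoxia at P14, and at 11.45 and 11.37 in room air and at 11.36, 11.27 and 11.38 in hyperoxia at P29. Col6a1 fell by 0.42 (SE 0.08, adjusted p = 0.00106), without overlap at P14 and with overlap at P29. Col6a2 lay at 12.08 and 12.09 in room air and at 11.70, 11.75 and 11.89 in hyperoxia at P14, and at 11.12 and 10.92 in room air and at 11.35, 11.42 and 11.39 in hyperoxia at P29. Col6a2 fell by 0.30 (SE 0.09, adjusted p = 0.0132), a call that was lost without either P14 room-air array (adjusted p = 0.0513 and 0.0507). Col6a4 lay at 7.07 and 6.94 in room air and at 6.10, 6.41 and 6.29 in hyperoxia at P14, and at 6.56 and 6.53 in room air and at 6.34, 6.35 and 6.20 in hyperoxia at P29. Col6a4 fell by 0.74 (SE 0.10, adjusted p = 0.000132). Col6a3, the longest chain, differed by -0.11 (SE 0.08, adjusted p = 0.229).

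Of the 7 fibril-associated chains used, which sit on the surface of fibrils, 1 rose and 3 fell at P14. Col12a1 lay at 8.50 and 8.99 in room air and at 9.48, 9.36 and 9.29 in hyperoxia at P14, and at 7.66 and 7.42 in room air and at 8.54, 8.48 and 8.52 in hyperoxia at P29. Col12a1, a chain of tendon, ligament and loaded tissue, rose by 0.63 (SE 0.13, adjusted p = 0.00221), with no overlap. Col14a1 lay at 10.16 and 10.41 in room air and at 9.78, 9.97 and 9.84 in hyperoxia at P14, and at 8.75 and 8.56 in room air and at 9.10, 9.12 and 9.20 in hyperoxia at P29. Col14a1, a related chain that binds decorin-coated fibrils, fell by 0.42 (SE 0.10, adjusted p = 0.00442). Col9a1 and Col9a3, of the cartilage fibril surface, differed by -0.47 (SE 0.11, adjusted p = 0.00511) and -0.32 (SE 0.12, adjusted p = 0.0415). The call of Col9a3 was lost without P14 room air replicate 1 (-0.16, adjusted p = 0.358) and without any 1 of the 3 P14 hyperoxia arrays. Among 4 transmembrane chains, Col25a1, a chain found in brain and needed for motor axons to reach muscle, differed by -0.66 (SE 0.12, adjusted p = 0.000957), and the other three did not pass the test.

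Marker lists of other cells moved at P14 beside these counts. Of 8 lung fibroblast markers, 6 fell and 1 rose, with a median of -0.573, and their summed log2 level was 15.75 to 15.82 in room air and 15.36 to 15.38 in hyperoxia. All 5 mesothelial markers rose, with a median of 1.12 and a summed level of 10.51 to 10.83 in room air and 11.54 to 11.69 in hyperoxia. The 8 smooth muscle and pericyte markers lay at 14.29 to 14.38 and 14.35 to 14.38, and the 6 heart muscle markers at 11.86 to 12.24 and 12.68 to 12.86. The part of these cells in the differences of the collagen chains was not tested. With the actin 3 prime minus 5 prime difference as a term in the model, 2 chains rose at P14 (Col4a4 and Col8a1) and 2 fell (Col9a1 and Col27a1), among 812 genes that rose and 579 that fell in all.

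At P29, hyperoxia raised most fibrillar and basement membrane chains. Of the 38 chains, 20 rose (52.6%, against 34.2% of all 14988 genes) and 5 fell (13.2%, against 25.6%), and 9 were at least 2-fold higher (23.7%, against 4.98%). The median difference was 0.426, beside 0.038 for all genes. Groups did not overlap for 21 chains that were higher (55.3%, beside 41.2%) and 8 that were lower (21.1%, beside 33.1%). When arrays were aligned at the 75th percentile instead, 19 chains rose and 9 fell, beside 3831 and 5551 of all 14988 genes. The median over all genes was then -0.065 at P14 and -0.097 at P29, in place of 0.038 at either age. Replicate 2, the array of female pattern, was also taken as the only P29 hyperoxia array beside the room-air arrays of that pattern. The median difference of the chains was then 0.434, beside 0.066 for all genes.

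**Figure D2:**
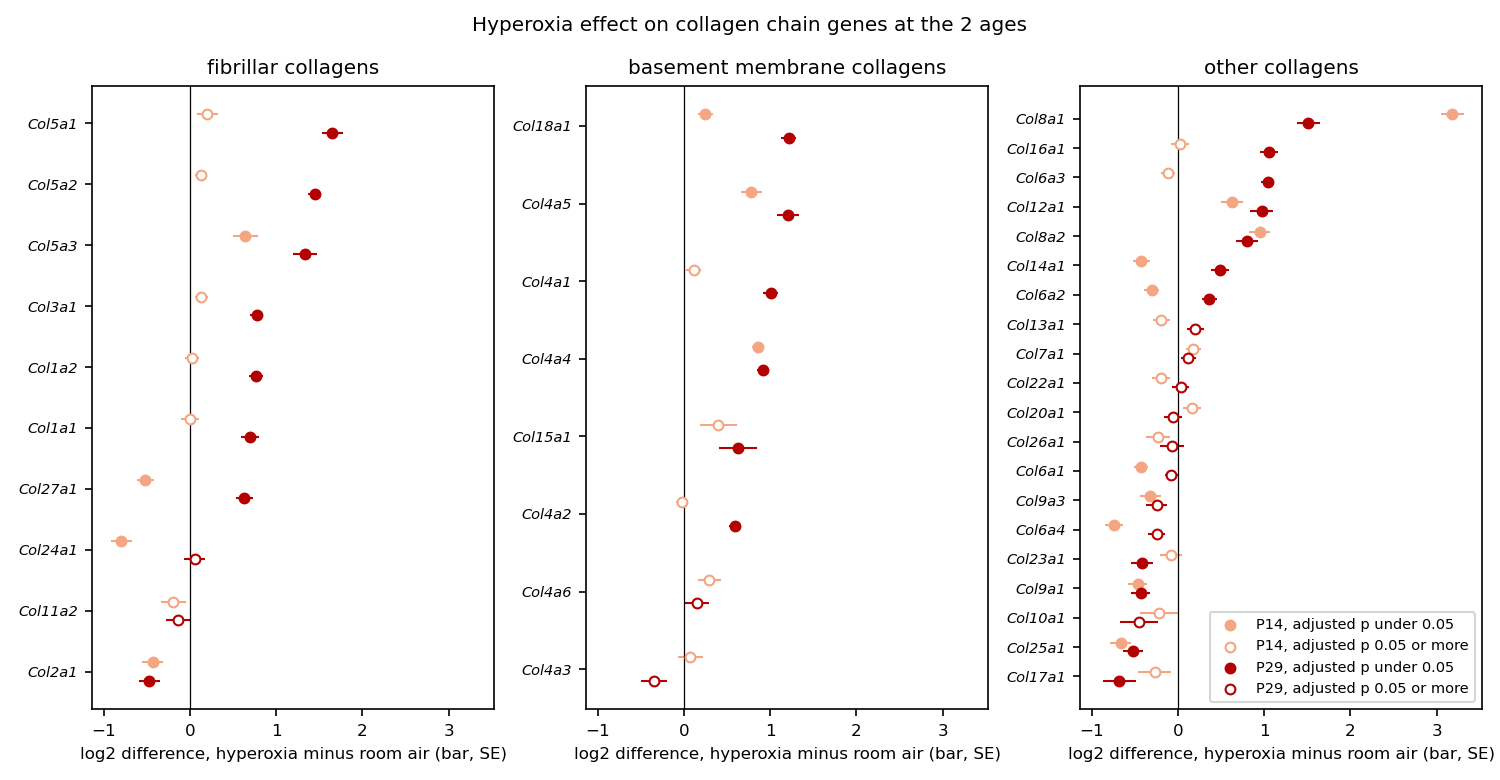
Log2 difference between hyperoxia and room air (horizontal axis) for each of the 38 collagen chain genes, in panels for the 10 fibrillar, 8 basement membrane and 20 other chains; orange marks P14, red P29, bars are SEs and filled points have an adjusted p under 0.05. At P29, 7 fibrillar and 6 basement membrane chains lie to the right of 0 with filled points, against 1 and 3 at P14, and Col8a1 is farthest to the right at P14 (3.18).

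Fibrillar chains rose at P29 in 7 of 10 and fell in 1, with a median of 0.731. Col1a1 lay at 11.59 and 11.73 in room air and at 11.57, 11.61 and 11.81 in hyperoxia at P14, and at 10.18 and 9.94 in room air and at 10.69, 10.70 and 10.88 in hyperoxia at P29. All P29 hyperoxia arrays of Col1a1 lay above the P29 room-air arrays and below every P14 array, and the difference was 0.70 (SE 0.11, adjusted p = 0.000245), or 1.62-fold. Col1a2 lay at 13.72 and 13.85 in room air and at 13.83, 13.86 and 13.73 in hyperoxia at P14, and at 12.75 and 12.64 in room air and at 13.51, 13.39 and 13.46 in hyperoxia at P29. Col1a2, the partner chain in type I collagen, showed the same order of groups and rose by 0.76 (SE 0.08, adjusted p = 2.13e-05), or 1.7-fold. Col3a1 lay at 14.07 and 14.11 in room air and at 14.19, 14.25 and 14.22 in hyperoxia at P14, and at 13.23 and 13.16 in room air and at 13.98, 13.91 and 14.02 in hyperoxia at P29. Col3a1, the chain of type III collagen of distensible tissues, rose by 0.77 (SE 0.07, adjusted p = 8.74e-06), or 1.71-fold. The second brightest probe sets of these genes gave larger differences at P29, given below.

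With the brightest probe sets, type V chains had the largest differences among fibrillar chains at P29; with second sets Col1a1 (2.99), Col1a2 (2.22) and Col3a1 (2.15) lay above Col5a2 (2.11) and Col5a1 (1.49). Col5a1 lay at 10.41 and 10.88 in room air and at 10.79, 10.86 and 10.91 in hyperoxia at P14, and at 8.44 and 8.35 in room air and at 10.09, 10.11 and 9.93 in hyperoxia at P29. Col5a1 rose by 1.65 (SE 0.12, adjusted p = 1.69e-06), or 3.14-fold, with the P29 room-air arrays far below all others. Col5a2 lay at 12.44 and 12.42 in room air and at 12.58, 12.56 and 12.55 in hyperoxia at P14, and at 10.75 and 10.70 in room air and at 12.16, 12.24 and 12.11 in hyperoxia at P29. Col5a2, which lies next to Col3a1 on chromosome 1, rose by 1.45 (SE 0.07, adjusted p = 1.72e-07), or 2.73-fold. Col5a3 rose by 1.33 (SE 0.14, adjusted p = 2.13e-05), or 2.52-fold, and had its highest values of the series on the P29 hyperoxia arrays. Col27a1 rose by 0.63 (SE 0.10, adjusted p = 0.000284), the opposite of its direction at P14. Col24a1 lay at 0.05 (adjusted p = 0.719), with no P29 array above 3.56.

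**Figure D3:**
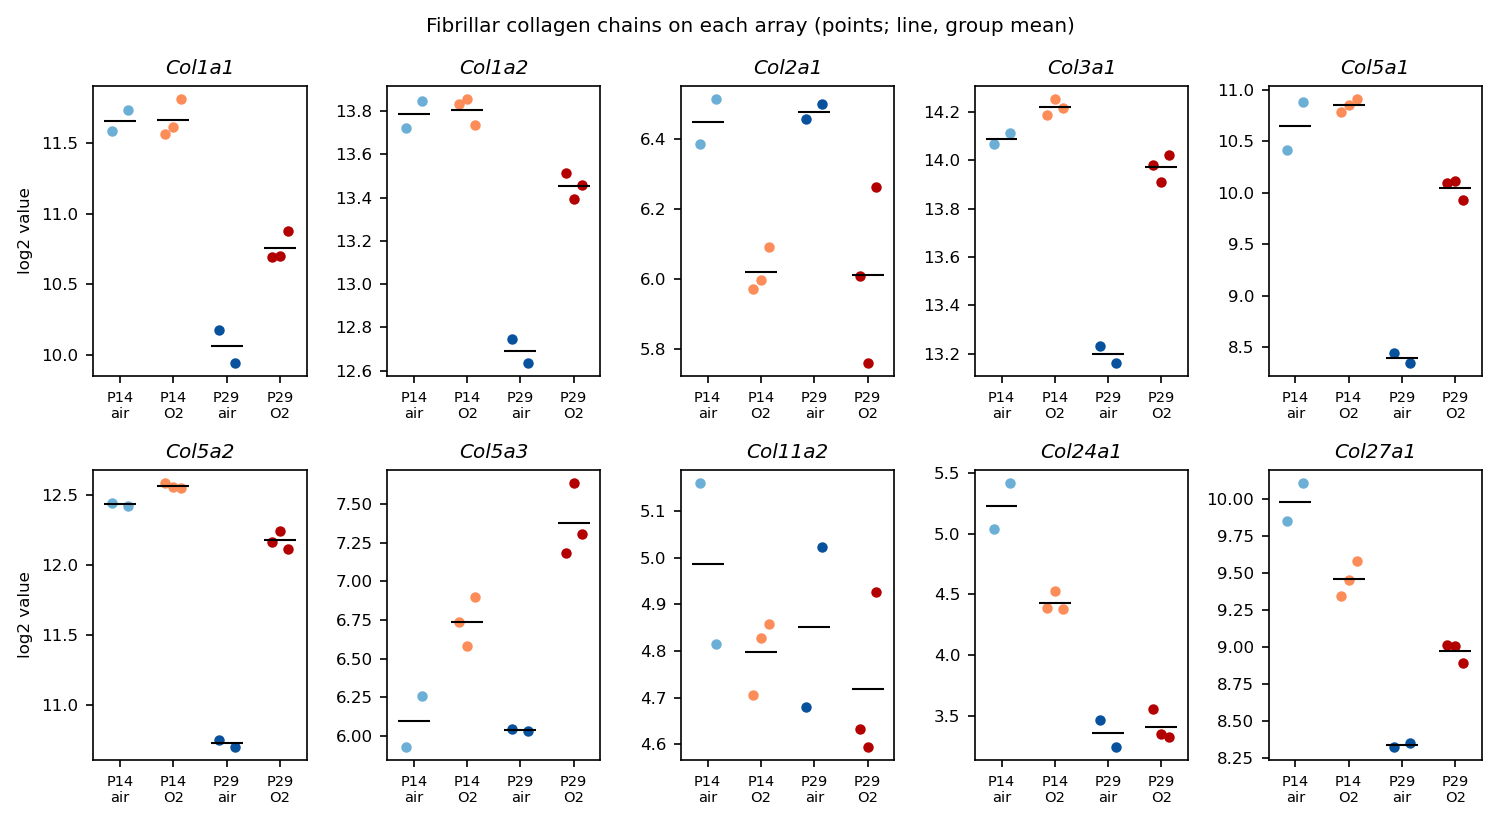
Log2 value (vertical axis) of the 10 fibrillar chains on each of the 10 arrays, with P14 and P29 room air and hyperoxia (O2) along the horizontal axis; points are arrays and lines group means. For Col1a1, Col1a2, Col3a1, Col5a1 and Col5a2 the 2 P29 room-air arrays are the lowest, and the P29 hyperoxia arrays lie between them and the P14 arrays.

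The start regions of Col5a1, the fibrillar chain with the largest difference at P29 with the brightest sets, and of Col1a2 are given for comparison with that of Col8a1, in the same notation.
Col5a1, chr2:27886175-27886474 (+ strand): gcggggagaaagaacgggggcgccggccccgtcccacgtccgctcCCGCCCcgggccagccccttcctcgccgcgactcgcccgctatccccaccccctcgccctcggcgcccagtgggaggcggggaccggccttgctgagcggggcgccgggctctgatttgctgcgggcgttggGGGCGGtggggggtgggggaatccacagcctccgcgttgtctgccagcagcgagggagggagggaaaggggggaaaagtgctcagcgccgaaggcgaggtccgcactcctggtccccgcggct
Col1a2, chr6:4505368-4505667 (+ strand): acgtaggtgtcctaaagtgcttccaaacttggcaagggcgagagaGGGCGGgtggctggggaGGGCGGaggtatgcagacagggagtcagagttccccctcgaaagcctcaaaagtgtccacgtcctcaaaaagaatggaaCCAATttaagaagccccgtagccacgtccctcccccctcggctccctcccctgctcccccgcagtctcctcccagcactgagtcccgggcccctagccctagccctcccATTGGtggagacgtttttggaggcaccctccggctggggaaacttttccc
The window of Col5a1 held 2 matches of GGGCGG and none of the other motifs, with a GC content of 75%. That of Col1a2 held 2 matches of CCAAT and 2 of GGGCGG, with a GC content of 61.0%.

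Of the 8 basement membrane chains, 6 rose and 0 fell at P29, against 6 and 1 at an unadjusted p under 0.05, with a median of 0.771. Col4a1 rose by 1.01 (SE 0.09, adjusted p = 4.07e-06), or 2.01-fold, and Col4a2 by 0.59 (SE 0.07, adjusted p = 4.42e-05), or 1.51-fold. The P29 hyperoxia arrays of both genes lay at about the height of the P14 arrays, while the P29 room-air arrays were the lowest of the series. Col18a1 rose by 1.22 (SE 0.08, adjusted p = 9.98e-07), or 2.32-fold, with that same order. Col4a4 rose by 0.92 (SE 0.07, adjusted p = 2.59e-06), or 1.89-fold, and Col4a5 by 1.20 (SE 0.13, adjusted p = 1.65e-05), or 2.3-fold. For both, the hyperoxia arrays lay above all room-air arrays of either age, and the room-air levels did not pass the test with age (-0.21, adjusted p = 0.0524, and -0.26, adjusted p = 0.15). Col15a1 rose by 0.63 (SE 0.21, adjusted p = 0.0259), a call that was lost without P29 room air replicate 1 (0.45, adjusted p = 0.19) and without P29 hyperoxia replicate 2 or 3 (adjusted p = 0.0617 and 0.0553). Col4a3 and Col4a6 did not pass the test (-0.34, adjusted p = 0.0635, and 0.15, adjusted p = 0.352).

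Col4a1 and Col4a2 lie head to head on chromosome 8, and their start regions are given because the annotated starts are 21 bases apart and the windows share 78 bases.
Col4a1, chr8:11312777-11313076 (minus strand): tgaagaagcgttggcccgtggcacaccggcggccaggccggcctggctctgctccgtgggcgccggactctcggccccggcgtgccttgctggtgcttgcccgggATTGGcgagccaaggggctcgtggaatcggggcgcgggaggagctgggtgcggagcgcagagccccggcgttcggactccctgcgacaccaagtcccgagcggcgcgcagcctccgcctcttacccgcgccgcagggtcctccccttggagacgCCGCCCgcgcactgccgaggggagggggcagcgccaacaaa
Col4a2, chr8:11312555-11312854 (+ strand): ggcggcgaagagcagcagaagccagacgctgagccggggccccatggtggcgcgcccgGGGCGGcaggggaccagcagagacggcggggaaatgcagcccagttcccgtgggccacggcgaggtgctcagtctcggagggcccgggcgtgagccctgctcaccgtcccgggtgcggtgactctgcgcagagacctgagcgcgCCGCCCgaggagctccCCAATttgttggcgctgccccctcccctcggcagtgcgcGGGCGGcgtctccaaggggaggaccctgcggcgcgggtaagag
The window of Col4a1 held 1 match of CCAAT and 1 of GGGCGG, and that of Col4a2 held 1 of CCAAT and 3 of GGGCGG. The GGGCGG match of Col4a1 lies in the 78 shared bases and is the same site as 1 of the 3 of Col4a2. On the X chromosome, Col4a5 and Col4a6 start 1343 bases apart. Col4a3 and Col4a4 are neighbours on chromosome 1. With the brightest sets, Col4a1 and Col4a2 both passed the test at P29 and neither at P14. In the other neighbouring type IV pairs 1 chain passed at both ages (Col4a4, Col4a5) and the other at neither (Col4a3, Col4a6) with the brightest probe sets; the difference between neighbours was not tested. With the second probe sets, Col4a6 rose at both ages (0.94 and 1.06, adjusted p = 9.77e-05 and 3.22e-05) and Col4a5 did not rise at either. By such sets Col4a1 fell at P14 (-0.45, adjusted p = 0.00254) and Col4a3 rose at P14 (0.29, adjusted p = 0.0205).

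Among the 20 other chains, 7 rose and 4 fell at P29, with a median of -0.013. Col6a3 lay at 12.59 and 12.72 in room air and at 12.50, 12.56 and 12.56 in hyperoxia at P14, and at 11.32 and 11.31 in room air and at 12.37, 12.28 and 12.41 in hyperoxia at P29. Col6a3 rose by 1.04 (SE 0.08, adjusted p = 1.69e-06), or 2.06-fold, with the P29 room-air arrays about a whole log2 unit below all others. Its partners differed in their values: Col6a2 rose by 0.36 (SE 0.09, adjusted p = 0.00417), a call lost without P29 room air replicate 2 (0.27, adjusted p = 0.0561), while Col6a1 and Col6a4 lay at -0.08 (adjusted p = 0.429) and -0.25 (adjusted p = 0.0517). Col16a1 lay at 9.94 and 9.96 in room air and at 9.86, 10.07 and 10.001 in hyperoxia at P14, and at 8.43 and 8.69 in room air and at 9.59, 9.75 and 9.52 in hyperoxia at P29. Col16a1, a fibril-associated chain of skin and smooth muscle, rose by 1.06 (SE 0.10, adjusted p = 1.13e-05), or 2.09-fold, and its P14 groups overlapped. Col12a1 rose by 0.97 (SE 0.13, adjusted p = 0.000102) and Col14a1 by 0.49 (SE 0.10, adjusted p = 0.00165); both directions were opposite with second probe sets, as given below.

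Of the 4 transmembrane chains, 3 fell and 0 rose at P29. Col17a1, the hemidesmosome collagen of basal epithelial cells, differed by -0.68 (SE 0.19, adjusted p = 0.00968), but it passed the filter only through the P29 room-air arrays, where it is high, so the filter favours this difference. Col23a1, a chain found in lung and skin epithelium, fell by 0.42 (SE 0.13, adjusted p = 0.0143), and Col25a1 fell by 0.52 (SE 0.12, adjusted p = 0.00362). The call of Col17a1 was lost without P29 room air replicate 1 (-0.57, adjusted p = 0.079), and that of Col23a1 without replicate 2 (-0.25, adjusted p = 0.167). Col13a1, a chain of cell adhesion sites and the neuromuscular junction, lay at 0.20 (adjusted p = 0.106). Col9a1 differed by -0.43 (SE 0.11, adjusted p = 0.00707), a call lost without P29 room air replicate 2 (-0.25, adjusted p = 0.102). Col7a1, the chain of anchoring fibrils, and Col10a1, Col20a1, Col22a1 and Col26a1 passed the test at neither age, with differences between -0.46 and 0.18.

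Beside the P29 counts, 5 of the 7 lung-defining markers fell, as given above. The summed level of the 8 fibroblast markers was 15.04 to 15.15 in room air and 15.09 to 15.27 in hyperoxia, with 2 markers that rose and 2 that fell. The 8 smooth muscle and pericyte markers lay at 13.87 to 14.2 and 13.6 to 14.07, and the 5 mesothelial markers at 11.27 to 11.32 and 10.76 to 11.32. The 6 heart muscle markers lay at 13.06 to 13.22 and 12.02 to 13.17, and the 5 skeletal muscle markers at 8.62 to 8.96 and 8.43 to 8.61. Of 6 bone markers, 3 were above the filter, with a summed level of 7.84 to 7.89 in room air and 10.16 to 10.5 in hyperoxia. Of these, Phex rose by 3.68 (adjusted p = 1.93e-08), Sp7, a transcription factor that defines osteoblasts, fell by 0.35 (adjusted p = 0.0437), and Alpl did not pass the test (-0.16, adjusted p = 0.254); the markers Ibsp and Dmp1 stayed below the filter. The part of these cells in the results was not tested. With the actin term, 14 chains rose at P29 and 1 fell, among 1628 genes that rose and 1277 that fell in all; the 14 included Col1a2, Col3a1, Col5a1, Col5a2, Col5a3, Col4a1, Col4a2, Col4a4, Col4a5, Col18a1 and Col6a3, and not Col1a1 or Col27a1.

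Across both ages the chains fell into a few patterns, and these counts rest on the contrasts above. There were 7 chains that rose at P14 and at P29 with the brightest sets (18.4%, beside 22.3% of all genes): Col4a4, Col4a5, Col5a3, Col8a1, Col8a2, Col12a1 and Col18a1. With second sets Col4a4 and Col8a1 again rose at both ages. Those of Col12a1 (-0.61 and -0.45) and Col4a5 (-0.33 and 0.11) did not, and that of Col18a1 did not pass at P14 (0.24, adjusted p = 0.0504). Another 3, Col6a2, Col14a1 and Col27a1, fell at P14 and rose at P29 with the brightest probe sets (7.89%, beside 1.19%). With second sets none of the 3 showed this pattern: Col6a2 lay at -0.65 and 0.006 (adjusted p = 0.000279 and 0.963), Col14a1 at -0.76 and -0.70, and Col27a1 at -0.07 and 0.90 (adjusted p = 0.562 and 3.21e-05). Both calls of Col6a2 were also lost without single room-air arrays, as given above. Col2a1, Col9a1 and Col25a1 fell at both ages with the brightest sets (7.89%, beside 14.2%). The second set of Col25a1 lay at -0.01 at P29 (adjusted p = 0.952). A further 10 rose at P29 and did not pass the test at P14 with the brightest sets (26.3%, beside 10.7%): Col1a1, Col1a2, Col3a1, Col4a1, Col4a2, Col5a1, Col5a2, Col6a3, Col15a1 and Col16a1. With second sets Col1a1 (0.78, adjusted p = 0.0042) and Col1a2 (0.27, adjusted p = 0.0456) rose at P14 too, and Col4a1 fell (-0.45, adjusted p = 0.00254). Still dimmer sets of Col1a2 and Col5a1 lay at -0.56 and -0.41 at P14 and were not tested. The second sets of Col3a1, Col5a1 and Col5a2 did not pass at P14 (adjusted p = 0.0664, 0.279 and 0.133). Col6a1, Col6a4, Col9a3 and Col24a1 fell at P14 and did not pass at P29 (10.5%, beside 7.37%), and 9 chains passed at neither age (23.7%, beside 24.4%).

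The hyperoxia effect differed between the ages, by the interaction term of the model, for 18 of 38 chains, beside 22.5% of all genes. It was higher at P29 than at P14 for 17 (44.7%, against 11.0% of all genes) and lower for 1 (2.63%, against 11.6%), with a median of 0.347 beside -0.001 for all genes. The pattern of Xist and Y-linked genes was male on all P14 arrays, female on both P29 room-air arrays and mixed in P29 hyperoxia. Age and this pattern therefore cannot be told apart in the interaction. Among fibrillar chains the count was 8 of 10 higher and 0 lower, also 8 and 0 at an unadjusted p under 0.05. With the brightest sets the largest was Col5a1, at 1.45 (SE 0.17, adjusted p = 0.000233), followed by Col5a2 at 1.32 (SE 0.10, adjusted p = 1.7e-05) and Col27a1 at 1.15 (SE 0.14, adjusted p = 0.000255). Col24a1 was among the 8 (0.85) with a P14 difference of -0.79 and no rise at P29, and it had passed the filter through its P14 room-air arrays alone. The values of type I and III chains were 0.69 for Col1a1, 0.74 for Col1a2 and 0.64 for Col3a1. This order rests on the probe set: with second sets the interaction was 2.22 for Col1a1, 1.95 for Col1a2, 1.94 for Col3a1, 1.93 for Col5a2 and 1.36 for Col5a1, each with an adjusted p of at most 0.000248.

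All 4 type VI chains had a higher effect at P29, from 0.35 for Col6a1 (adjusted p = 0.0449) to 1.16 for Col6a3 (adjusted p = 5.77e-05). The calls of Col6a1 and Col6a4 were lost when single arrays were left out. Of the basement membrane chains, Col18a1 (0.96, SE 0.12, adjusted p = 0.000255), Col4a1 (0.89, SE 0.12, adjusted p = 0.000455) and Col4a2 (0.62, SE 0.10, adjusted p = 0.00147) differed between ages. Col4a4 and Col4a5, which rose at both ages with the brightest sets, did not pass this test by those sets (0.05, adjusted p = 0.765, and 0.42, adjusted p = 0.115). The second set of Col4a5, which rose at neither age, did pass it (0.45, adjusted p = 0.0312). The effect on Col8a1 was smaller at P29, by -1.67 (SE 0.18, adjusted p = 0.00014), and that on Col8a2 was not shown to differ (-0.15, adjusted p = 0.6).

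With age in room air, chains that fell far outnumbered those that rose. From P14 to P29, 19 of 38 fell (50%, against 19.1% of all genes) and 3 rose (7.89%, against 22.2%), with a median of -0.397 beside 0.014. Fibrillar chains fell in 7 of 10, with a median of -1.35 and falls of more than 1.5 in Col5a1 (-2.25, SE 0.14, adjusted p = 3.99e-07) and Col5a2 (-1.71, SE 0.08, adjusted p = 8.27e-08) among others. Col24a1, counted in the 7, differed by -1.87 (SE 0.14, adjusted p = 1.39e-06), but it passed the filter only through the P14 room-air arrays, where it is high, so the filter favours this difference. Col1a1 differed by -1.60 (SE 0.12, adjusted p = 1.48e-06), Col1a2 by -1.09 (SE 0.09, adjusted p = 3.34e-06) and Col3a1 by -0.89 (SE 0.08, adjusted p = 6.51e-06). Of basement membrane chains, Col4a1 (-0.87), Col4a2 (-0.61), Col15a1 (-0.73) and Col18a1 (-0.97) fell. Col8a1, Col8a2 and Col17a1 rose. The filter favours the rise of Col17a1 (0.56, SE 0.21, adjusted p = 0.0498), since it passed only through the P29 room-air arrays, where it is high. Age and the pattern of Xist and Y-linked genes cannot be told apart in room air, since both P29 arrays had the female and both P14 arrays the male pattern.

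With age in hyperoxia, 12 chains fell (31.6%, against 11.7%) and 3 rose (7.89%, against 15.4%), with a median of -0.145 beside 0.013. Fibrillar chains fell in 7 and rose in 1, Col5a3 (0.64, SE 0.13, adjusted p = 0.00394). The 7 included Col24a1 (-1.02), which was below the filter level of 5 on every hyperoxia array and had passed through its P14 room-air arrays alone. Of the basement membrane chains 0 rose and 0 fell by limma, against 0 and 2 at an unadjusted p under 0.05. Col4a1, Col4a2 and Col18a1 lay at 0.03, 0.00 and -0.01 between the ages in hyperoxia. All 12 chains that fell with age in hyperoxia also fell in room air. The pattern of Xist and Y-linked genes was male on all P14 hyperoxia arrays and mixed at P29, and its part in these differences was not tested. The age contrasts share arrays with the hyperoxia contrasts and are no independent support for them.

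Probe sets of the same gene mostly had the same direction, with unequal size. The 42 genes had 82 probe sets, and 19 of the genes used had several that reached the filter, with 26 other sets beside the brightest. Of 11 other sets of genes that passed at P14, 9 had the same sign, and of 21 at P29, 18 had it. For Col1a1 the second set lay at 8.36 and 8.38 in P29 room air and at 11.23, 11.33 and 11.54 in P29 hyperoxia, a difference of 2.99 (SE 0.18, adjusted p = 7.93e-07) against 0.70 with the brightest set; at P14 it rose by 0.78 (SE 0.18, adjusted p = 0.0042), where the brightest set did not pass. Second sets gave 2.22 for Col1a2, 2.15 for Col3a1 and 2.11 for Col5a2 at P29, each larger than the brightest. A still dimmer set of Col1a2 gave 0.71 at P29, beside 0.76 with the brightest, and -0.56 at P14, beside 0.02. Such a set of Col5a1 gave 0.64 at P29, beside 1.65 with the brightest, and -0.41 at P14, beside 0.20. These dimmer sets were not tested. For Col8a1 the second set gave 1.54 at P14 and 0.48 at P29, both smaller. Col4a1 had -0.45 (SE 0.09, adjusted p = 0.00254) at P14 with its second set.

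Opposite signs were limited, among genes that passed, to Col12a1 and Col4a5 at P14 and to Col12a1 and Col14a1 at P29. The second set of Col12a1 gave -0.61 (SE 0.18, adjusted p = 0.0172) at P14 and -0.45 (SE 0.18, adjusted p = 0.0575) at P29. That of Col14a1 gave -0.76 (SE 0.11, adjusted p = 0.000291) and -0.70 (SE 0.11, adjusted p = 0.000371), so this gene fell at both ages by it. Which transcripts or ends each set detects is not given in the sources used here.

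**Figure D4:**
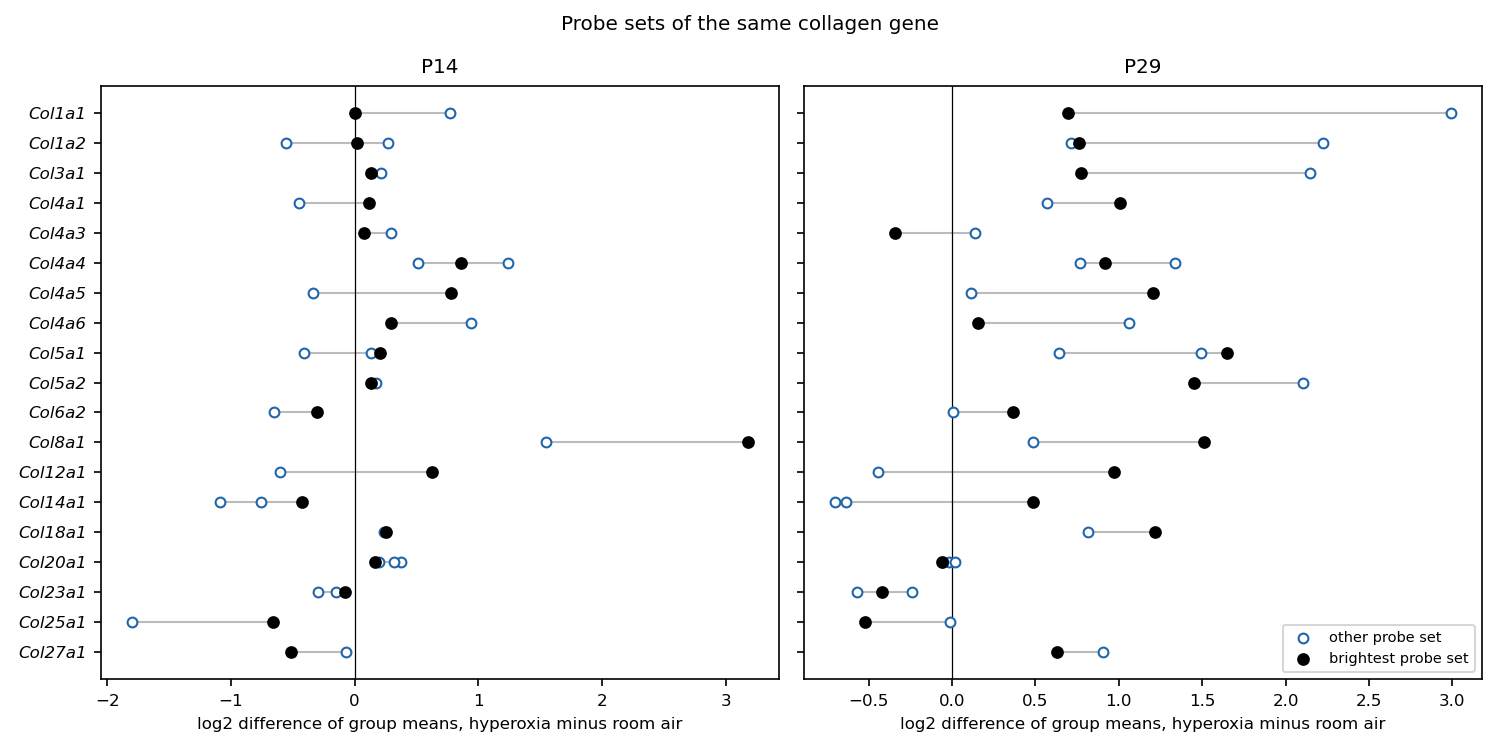
Log2 difference of group means between hyperoxia and room air (horizontal axis) at P14 and P29 for the 19 collagen chain genes with several probe sets above the filter; black points are the brightest set and open points the others. At P29 the points of Col1a1, Col1a2, Col3a1 and Col5a2 lie to the right of 0 with a larger difference for an open point than for the black one (a further open point of Col1a2 is at 0.71), and those of Col12a1 and Col14a1 lie on both sides of 0.

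Genes that process collagen were taken from 5 lists. Beside the list counts, 32.3% of all 14988 genes rose and 22.8% fell at P14, and 34.2% rose and 25.6% fell at P29. Of 19 genes for chain modification and folding, the enzymes and chaperones of the endoplasmic reticulum, 3 rose and 8 fell at P14 (median -0.094) and 7 rose and 2 fell at P29 (median 0.108). P4ha2, a prolyl hydroxylase subunit, rose by 0.70 (SE 0.09, adjusted p = 9.87e-05) at P14 and lay at 0.11 at P29 (adjusted p = 0.323). P4ha3, a related subunit, fell by 0.73 at P14 (adjusted p = 7.56e-05) and rose by 0.39 at P29 (adjusted p = 0.0032). Fkbp14, a folding helper, rose at both ages (0.36 and 0.95), and Plod3, a lysyl hydroxylase, differed by -0.61 and -0.56, a fall at both.

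Of 10 genes for propeptide removal and cross-linking, 4 rose and 2 fell at P14 (median 0.053) and 5 rose and 1 fell at P29 (median 0.406). Loxl1, a lysyl oxidase of elastic fibres, fell by 0.30 at P14 (adjusted p = 0.0194) and rose by 1.06 (SE 0.10, adjusted p = 6.29e-06) at P29. Loxl3, a relative, lay at -0.17 (adjusted p = 0.148) and rose by 0.77 (adjusted p = 5.51e-05). Tll1, a protease that trims procollagen ends, rose by 1.27 at P14 (adjusted p = 9.97e-06) and lay at 0.05 at P29. Pcolce2, an enhancer of that trimming, differed by -1.25 (SE 0.11, adjusted p = 3.85e-06) at P29.

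Of 9 small proteoglycans that bind fibrils, 5 rose and 3 fell at P14 (median 0.346) and 4 rose and 4 fell at P29 (median -0.05). Fmod, which regulates fibril growth, rose by 1.08 at P14 and by 1.99 (SE 0.11, adjusted p = 2.32e-07) at P29. Prelp, which anchors basement membrane to connective tissue, fell by 0.90 and 2.63 (adjusted p = 1.73e-05 and 1.93e-08). Dcn, coding for decorin, rose by 1.17 at P14 and fell by 0.53 at P29 (adjusted p = 4.18e-05 and 0.00513), and Lum, coding for lumican, rose by 1.69 and 0.63. The interaction passed the test with a negative value for 5 of the 9 and a positive value for 2, beside 11.6% and 11.0% of all genes. Of the 38 collagen chains it passed the test above 0 for 17 and below 0 for 1.

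Of 15 laminin, nidogen and proteoglycan genes of basement membranes, 6 rose and 5 fell at P14 (median 0.209) and 10 rose and 1 fell at P29 (median 0.291). Lamb1 and Nid1, a laminin chain and a linker of laminin to type IV collagen, rose by 0.60 and 0.31 at P14 and by 1.45 and 1.06 at P29. Lama1, an embryonic laminin chain, rose by 0.97 and 1.12, and Smoc2, a matricellular protein, rose by 1.15 at P14 and lay at -0.09 at P29 (adjusted p = 0.521). Of 10 collagen receptors, 2 rose and 4 fell at P14 (median -0.051) and 5 rose and 2 fell at P29 (median 0.183). Ddr1, an epithelial receptor kinase for collagen, rose at both ages (0.94 and 1.01). Ddr2, its mesenchymal relative, fell by 0.23 at P14 and rose by 0.56 at P29, and Mrc2, which takes up collagen for breakdown, lay at 0.12 at P14 (adjusted p = 0.529) and rose by 1.27 at P29. Lair1, an inhibitory receptor on leukocytes, differed by -0.27 and -0.72, a fall at both ages. Second probe sets gave the opposite sign for Loxl1, Fmod and Lair1 at P14 and for Ddr2 and Mrc2 at P29.

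**Figure D5:**
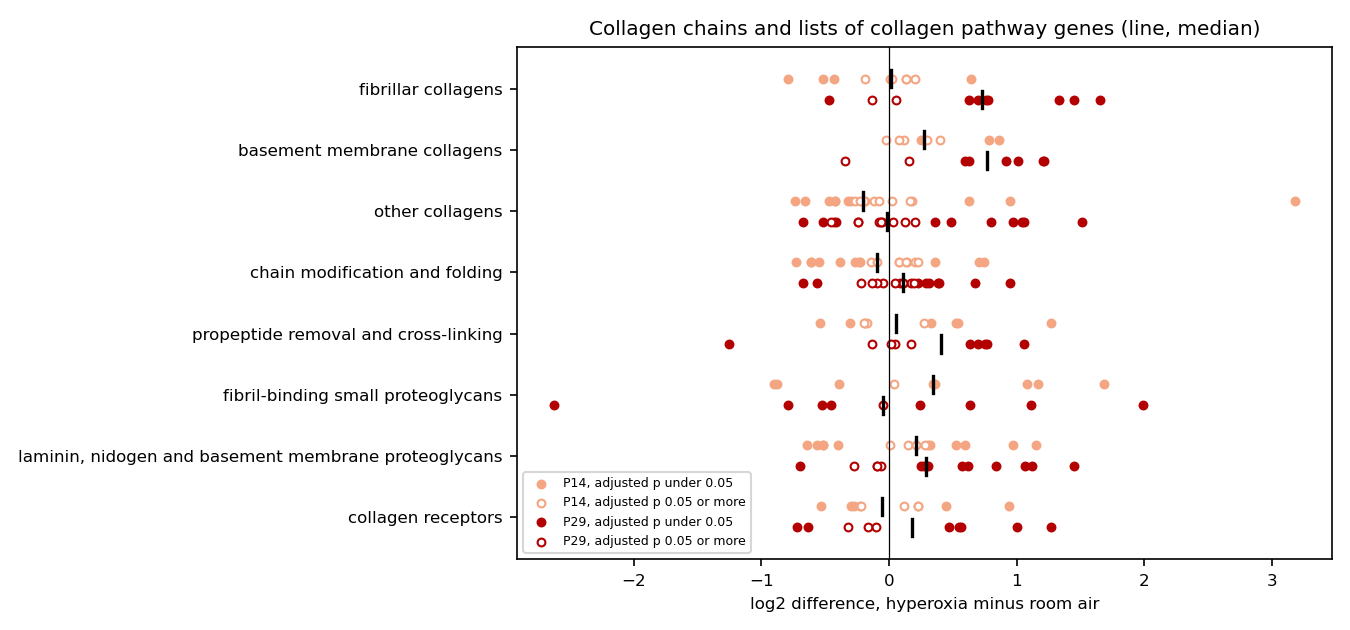
Log2 difference between hyperoxia and room air (horizontal axis) for the genes of 3 collagen classes and 5 lists of collagen pathway genes (vertical axis); orange points are P14, red points P29, filled points have an adjusted p under 0.05 and black lines are list medians. The median of the fibrillar chains moves from 0.013 at P14 to 0.731 at P29 and that of the small proteoglycans from 0.346 to -0.05.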

How the data were processed

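RNA of 10 lung samples was measured on Affymetrix arrays of 45101 probe sets. The authors deposited log2 values made with Partek 6.4 and GCRMA, per the submitters' processing notes; no version of GCRMA, background setting or normalization setting was found in the labels. Groups and replicate numbers came from the sample titles. Probe sets with 1 gene symbol in the platform annotation (34958) were used; 932 with several and 9211 with none were left out, and 34754 matched RefSeq GRCm38.p6 by gene number.

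The 4 groups were modelled together in limma (version 3.58.1, under R 4.3.3; lmFit and eBayes, 6 residual and 5.09 prior degrees of freedom), with 5 contrasts, each adjusted by Benjamini-Hochberg over 14988 genes; the threshold was an adjusted p of 0.05. The fit was tested on simulated data. The members and lists were chosen with earlier results of these data known. Values per array are given for fibrillar and basement membrane chains and for other chains with a called difference of at least 1, plus Col8a2, Col6a1, Col6a2, Col6a4, Col12a1 and Col14a1, chosen after their values were seen; from each pathway list the 4 genes of smallest p are named. Alternatives changed the filter, probe set, scaling, variance model, weights, arrays and covariates. The number of arrays limits the precision. Same-numbered arrays correlated between groups at -0.099 to 0.113 in their deviations from group means, so the numbers were not taken as pairs.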

Additional observations from a re-analysis of the deposited data

Results flagged for a closer look

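For 18 chains the hyperoxia effect at P29 differed from that at P14 by limma's interaction term (adjusted p under 0.05), and the values are differences of log2 differences, P29 minus P14. Among fibrillar chains they were 0.69 for Col1a1, 0.74 for Col1a2, 0.64 for Col3a1, 1.45 for Col5a1, 1.32 for Col5a2, 0.69 for Col5a3, 0.85 for Col24a1 and 1.15 for Col27a1. Among basement membrane chains they were 0.89 for Col4a1, 0.62 for Col4a2 and 0.96 for Col18a1. Among the other chains they were 0.35 for Col6a1, 0.67 for Col6a2, 1.16 for Col6a3 and 0.49 for Col6a4 of type VI collagen, and 0.91 for Col14a1 and 1.03 for Col16a1, which sit on fibrils. Col8a1 had -1.67, the only negative value among the 18.

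All of these interactions rest on 2 room-air arrays at each age. Age cannot be told apart in them from the pattern of Xist and Y-linked genes, as given above. The calls of Col6a1, Col6a4 and Col5a3 were lost without certain single arrays; without P14 room air replicate 2, for example, Col5a3 had 0.53 (adjusted p = 0.134), and without P14 room air replicate 1, Col6a1 had 0.30 (adjusted p = 0.11) and Col6a4 had 0.43 (adjusted p = 0.0813). The other 15 kept an adjusted p under 0.05 in each such fit. With its second probe set, however, Col14a1 had an interaction of 0.06 (adjusted p = 0.86). Col24a1, also among the 15, had passed the filter through its P14 room-air arrays alone.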

How the results depend on the processing

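Of 97 called values of the chains over the 5 contrasts, 57 kept direction and call under every alternative, and the counts changed as follows. With second brightest probe sets 3 chains fell at P29, against 5, and with each array set to its 75th percentile 9 fell. With the actin term 2 rose and 2 fell at P14, against 7 and 10, and 1 fell at P29. With replicate 2 as the only P29 hyperoxia array, assumed to vary like the other groups, 2 fell at P29, and 7, against 12, fell with age in hyperoxia. Leaving out 1 array at a time gave 5 to 10 that rose and 8 to 9 that fell at P14, and 19 to 20 and 4 to 5 at P29. The interaction then passed the test above 0 in 14 to 17 and below 0 in 1 to 2. With age, 2 to 3 rose and 18 to 20 fell in room air, and 2 to 3 and 10 to 13 in hyperoxia. The replicate block gave counts of 7 and 10 (P14), 20 and 5 (P29), 17 and 1 (interaction), 2 and 20 with age in room air and 3 and 13 in hyperoxia; Col18a1 (0.24, adjusted p = 0.0574) and Col9a3 (-0.33, adjusted p = 0.0742) lost their P14 call under it and Col17a1 its call with age in room air (0.56, adjusted p = 0.0613). Values turned as follows, and the cause was not tested. With the mean of all probe sets, Lamb1 had -0.0022 at P14 and Col14a1 -0.28 at P29. With second sets at P14, Col12a1 had -0.61, Col4a5 -0.33, Fmod -0.19, Lair1 0.10 and Loxl1 0.0605; at P29, Col12a1 had -0.45, Col14a1 -0.70, Ddr2 -0.51 and Mrc2 -0.0397. With the actin term, Col15a1 had -0.32 at P29. With 2 or 3 arrays a group, and room-air groups of 2, small differences such as those of Col18a1 and Col9a3 at P14 were near the limit of what the test could call. Chains below the filter have no tested difference.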

Other observations

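The second probe set of Col25a1 had a course with age that the brightest set lacked. It lay at 8.24 and 8.50 in P14 room air, at 6.55, 6.58 and 6.57 in P14 hyperoxia, at 4.26 and 4.11 in P29 room air, and at 4.05, 4.45 and 4.02 in P29 hyperoxia. The hyperoxia difference was -1.80 at P14 (SE 0.13, adjusted p = 5.7e-06) and -0.01 at P29 (adjusted p = 0.952), and the difference with age in room air was -4.18 (adjusted p = 4.35e-08). With the brightest set of Col25a1 the room-air arrays differed by -0.16 between the ages. Which of the sets stands for the chain was not tested.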
